A study of Mus musculus with 12 samples.

Results

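The genes described here are 35 genes of DNA replication and mitosis, taken from a fixed list of symbols in a table of 47719 genes measured in mouse kidney cortex. The list was chosen with earlier results of these data known, so its shares set beside those of all genes are a description. Of the 35, 13 act around S phase (the replicative helicase subunits Mcm2 to Mcm7, the sliding clamp Pcna, the nucleotide enzymes Rrm1, Rrm2, Tyms and Tk1, and the E cyclins Ccne1 and Ccne2) and 22 act at the entry into mitosis or during it. All 35 were found in the table, and 20 of them passed the expression filter and were tested, 10 of each kind.

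RNA from the renal cortex of male C57BL6/J mice, 8 weeks old, was sequenced in 12 libraries, 3 for each of 4 groups. For 6 weeks the mice drank a Lieber-DeCarli liquid diet whose ethanol content was raised in steps to 6% (EtOH), or were pair fed an isocaloric diet with maltose-dextrin in its place (PF). The groups PF4hLPS and EtOH4hLPS had the same diets and were injected intraperitoneally with 10 mg/kg of lipopolysaccharide (LPS, a component of the outer membrane of Gram-negative bacteria) 4 hours before death, and the other mice received saline. No group carried a transgene or a deletion, and every mouse was on a liquid diet, so a mouse on ordinary chow is not among the groups. The labels name the source as the kidney as a whole and the region as its cortex, and they do not say that the 3 libraries of a group came from separate mice. The p-values therefore reflect library-to-library spread only, which may be technical.

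A cell that divides first copies its DNA and then separates the copies. The Mcm2 to Mcm7 proteins form the ring-shaped helicase that opens DNA at replication origins, and they are made before S phase begins, also in cells that are only licensed to replicate. Mitotic genes are transcribed later, in G2 and M, when the kinase Cdk1 with its B cyclins drives mitotic entry, and their messages are nearly absent from resting cells. In the adult kidney most tubule cells are at rest, and cells in mitosis are rare in a healthy cortex.

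Many mitotic promoters share 2 short motifs. One is the cell cycle genes homology region (CHR, TTTGAA), bound by the MuvB core of the DREAM and MYB-MuvB complexes, and the other is the CCAAT box (CCAAT), bound by NF-Y and usually present in several copies. E2F sites (searched as TTTCCCGC, TTTGGCGC, TTTCGCGC and TTTGCCGC) are typical of S-phase genes. RefSeq promoters of GRCm38.p6, from 250 bases before to 50 after the start, were matched by symbol to 28 of the 35 genes, and each motif was searched on both strands. CHR was present for 13 of the 28, against 17.9% of 32851 promoters, and a CCAAT box for 23 of the 28, against 37.4%. Promoters with at least 2 CCAAT boxes numbered 16, against 11.7% of all. An E2F match was present for 5 (Cdk1, Mcm3, Mcm5, Mcm6 and Mcm7), against 2.26% of all. A match is a description of the letters, not a measured site. The 150 bases upstream of the start are printed for the genes that passed the test in a comparison and for Mki67, the common proliferation marker. They are written 5′ to 3′ on the gene's strand, in lower case with motif matches of either strand in capitals, so that ATTGG is a CCAAT box and TTCAAA a CHR on the other strand.
Cdk1, chr10:69352913-69353062 on the minus strand: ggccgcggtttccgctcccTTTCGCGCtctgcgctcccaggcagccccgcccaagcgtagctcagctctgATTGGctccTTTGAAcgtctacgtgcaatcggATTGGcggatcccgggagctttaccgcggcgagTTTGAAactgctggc
Ccnb2, chr9:70421555-70421704 on the minus strand: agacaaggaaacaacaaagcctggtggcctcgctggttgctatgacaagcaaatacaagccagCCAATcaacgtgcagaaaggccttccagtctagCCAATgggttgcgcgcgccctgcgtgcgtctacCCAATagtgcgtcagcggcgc
Top2a, chr11:99024190-99024339 on the minus strand: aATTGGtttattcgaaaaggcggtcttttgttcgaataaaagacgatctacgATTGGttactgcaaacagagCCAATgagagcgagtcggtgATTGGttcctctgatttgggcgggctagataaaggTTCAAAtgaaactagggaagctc
Mki67, chr7:135716380-135716529 on the minus strand: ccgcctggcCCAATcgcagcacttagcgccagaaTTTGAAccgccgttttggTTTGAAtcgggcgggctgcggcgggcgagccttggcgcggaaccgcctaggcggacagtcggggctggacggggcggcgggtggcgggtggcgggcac
Nusap1, chr2:119618148-119618297 on the plus strand: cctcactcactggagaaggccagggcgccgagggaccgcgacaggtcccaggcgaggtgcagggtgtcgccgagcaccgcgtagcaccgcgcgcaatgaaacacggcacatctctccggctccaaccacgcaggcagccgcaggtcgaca
Mcm2, chr6:88898781-88898930 on the minus strand: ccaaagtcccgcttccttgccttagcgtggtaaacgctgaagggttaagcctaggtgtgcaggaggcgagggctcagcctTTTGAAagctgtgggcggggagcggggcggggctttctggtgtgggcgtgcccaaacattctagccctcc
The Cdk1 stretch holds 2 CHR matches, 2 CCAAT boxes and 1 E2F match. The Ccnb2 stretch has 3 evenly spaced CCAAT boxes, and the 2 CHR matches of Ccnb2 are in the searched window but not within the printed bases. The Top2a stretch has 4 CCAAT boxes with 1 CHR. The stretch of Nusap1 holds none of the motifs in these letters, and that of Mcm2 holds 1 CHR and no CCAAT box. The searched window of Mcm2 holds 1 CCAAT box. In GENCODE M21 on the same assembly, the genes that passed a test are annotated as Cdk1 (ENSMUSG00000019942) at chr10:69335146-69352938 on the minus strand, Ccnb2 (ENSMUSG00000032218) at chr9:70407692-70421547 on the minus strand, Top2a (ENSMUSG00000020914) at chr11:98992943-99024189 on the minus strand, Nusap1 (ENSMUSG00000027306) at chr2:119618298-119651244 on the plus strand and Mcm2 (ENSMUSG00000002870) at chr6:88883474-88898780 on the minus strand.

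Levels were low and uneven across the list. They are given as FPKM, fragments per kilobase of transcript after scaling between libraries, a unit per length in which genes can be set side by side. The values were deposited as normalized. The median ratio of a gene to its geometric mean over the libraries was 0.976 to 1.027 per library. Total FPKM ran from 1005219 in the first EtOH library to 1935824 in the second PF4hLPS library. Pcna had the highest median over the 12 libraries, 21.0 FPKM, followed by Tyms, the thymidylate synthase, and by the helicase subunits Mcm6 at 7.70 and Mcm7 at 5.45 FPKM. Among mitotic genes the highest medians were those of Nusap1 and Ccna2. Only 10 of the 35 genes were at 1 FPKM or more in all 12 libraries, and 8 reached 1 FPKM in none (Mcm5, Ccne1, Foxm1, Aurka, Aurkb, Plk1, Ube2c and Kif20a). All the same, 34 were above 0 in every library. The exception, Plk1, is listed at 0 in the second EtOH4hLPS library.

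**Figure D1:**
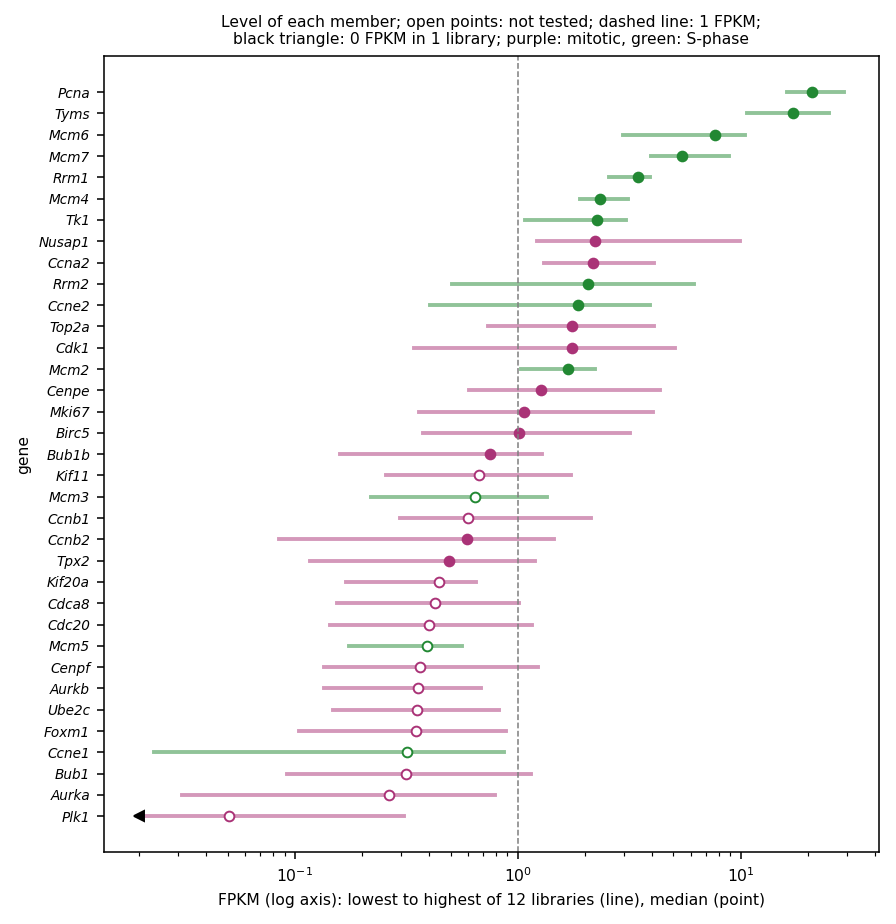
FPKM of the 35 genes on a log axis, with a line from the lowest to the highest of 12 libraries and a point at the median. Filled points mark the 20 tested genes and open points the 15 that were not tested. Pcna is at the top with a median of 21.0 FPKM, and most mitotic genes lie below 1 FPKM.

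A rough fragment number behind these values was read from the steps of the low values in the table. By that estimate the median library held fewer than 10 fragments of 2 genes (Plk1 and Aurka), 10 to 99 fragments of 18 genes and 100 or more of 15. Cdk1 rested on a median of 142 estimated fragments, Top2a on 180, Mki67 on 243 and Nusap1 on 200, but Ccnb2 on 16. The filter asked for at least 1 FPKM in at least 3 libraries. Ccnb2 passed it through the 3 PF4hLPS libraries alone, and Tpx2 only through libraries of mice given LPS, so the tested genes are not a neutral sample of the list, and counts over all 35 are given beside those over the 20. Exons of 10 of the genes (Mcm7, Tk1, Ccne2, Ccna2, Cdca8, Plk1, Cdc20, Ube2c, Kif20a and Nusap1) overlap exons of another gene on the opposite strand, and whether the counting used strand is not given in the sources used here. Processed copies exist for Pcna, Ccnb1 and Ccnb2 and could share fragments with them.

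Cortex markers were abundant in every library, with proximal tubule markers summing to 41300 FPKM or more. Kap, at 39300 to 106000 FPKM, made up most of that sum. Slc34a1 was at 465 FPKM or more and Slc5a2 at 42.7 or more. Depth relative to the first PF library ran from 0.491 in the second PF4hLPS library to 1.199 in PF library 3. The 3 libraries with the lowest values of GC-rich genes within their groups were the first PF, the second PF4hLPS and the first EtOH4hLPS. The second PF4hLPS library was also the highest of the 12 for 16 of the 35 genes, and the second EtOH4hLPS library the lowest for 12. Median transcript GC content was 49.3% for the 35 genes and 49.4% for all genes tested.

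With ethanol, 3 mitotic genes passed the test, and most others had lower group means without passing it. Cdk1, the kinase that starts mitosis, Ccnb2, one of its B cyclins, and Top2a, the topoisomerase that untangles sister chromatids, fell with ethanol when the effect was averaged over both LPS states. These were 3 of the 20 tested genes, against 0.22% of the 14109 genes tested called lower in the same limma fit, and none of the 20 was called higher, against 0.0992%. Since Ccnb2 was tested only through the group in which it is highest, that share is a description. In a fit of all 35 genes, with a filter and a pseudocount of 0.1 FPKM, 1 of 35 (Ccnb2) was called lower, against 0.107% of 23390 genes, and 0 higher, against 0.0513%. The 22 mitotic genes summed to 18.3 to 25.3 FPKM in the 3 PF libraries and to 12.1 to 13.7 in the 3 EtOH libraries. Under LPS they summed to 24.3 to 46.1 FPKM in the pair-fed libraries and to 9.54 to 18.0 in the ethanol-fed libraries. The groups of the 2 diets did not overlap in either state. The sums of the 13 S-phase genes did overlap, with 64.6 to 74.1 FPKM in PF and 55.6 to 68.5 in EtOH, and 63.3 to 72.6 in PF4hLPS and 61.0 to 74.1 in EtOH4hLPS. Pcna and Tyms make up much of these sums. Without them the S-phase sums were 33.3 to 35.7 FPKM in PF and 23.5 to 29.9 in EtOH, with no overlap, and 27.8 to 31.8 in PF4hLPS and 20.2 to 30.0 in EtOH4hLPS, with overlap. In bulk tissue, fewer dividing cells and less mRNA in each of them cannot be told apart.

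**Figure D2:**
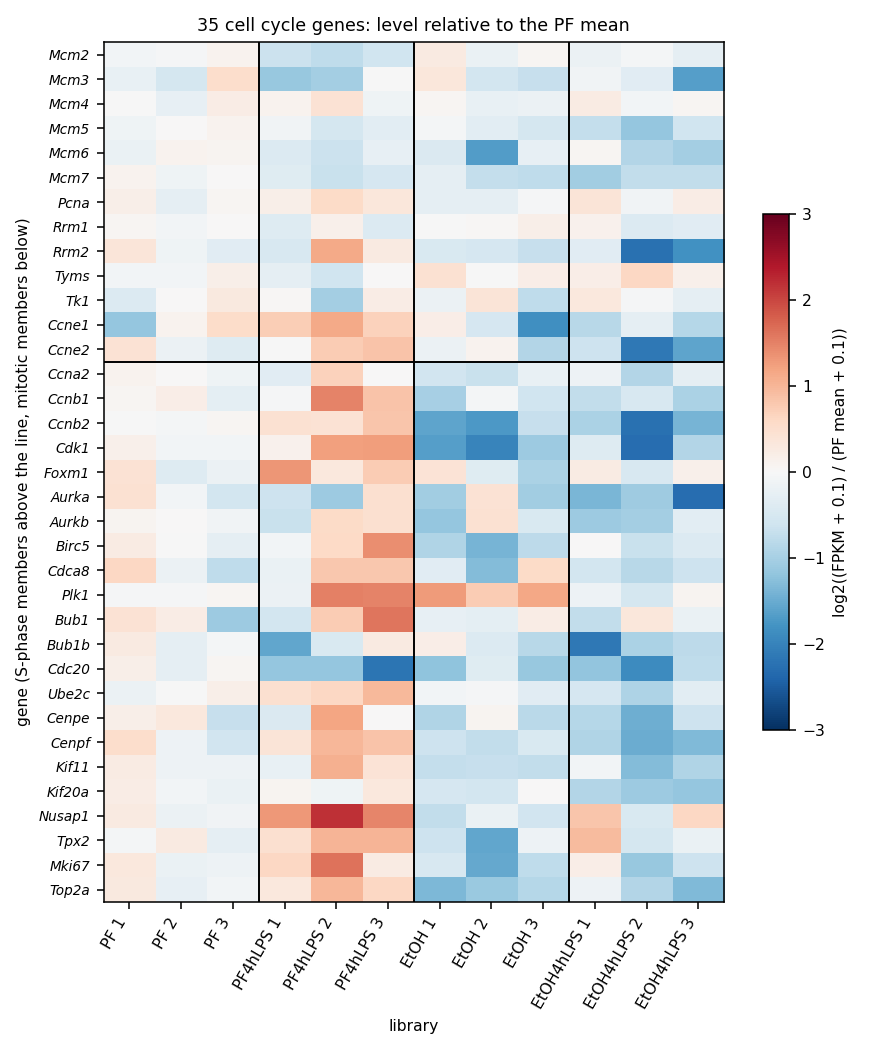
Level of the 35 genes in the 12 libraries as log2 of (FPKM + 0.1) over (PF mean + 0.1), S-phase genes above the black line and mitotic genes below it. Mitotic rows are mostly red in the PF4hLPS columns and mostly blue in the EtOH and EtOH4hLPS columns, with Plk1 (higher in EtOH) as the exception in the EtOH columns.

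Cdk1 was at 2.29, 1.95 and 1.95 FPKM in the PF libraries and at 0.582, 0.444 and 0.919 in the EtOH libraries. Under LPS it was at 2.25, 4.98 and 5.09 FPKM with the control diet and at 1.56, 0.344 and 1.07 with ethanol. Every ethanol-fed library was below every pair-fed one. The log2 fold change with ethanol was -1.13 ± 0.20 (SE) averaged over both states (limma adjusted p = 0.0428), -0.90 ± 0.28 without LPS and -1.35 ± 0.28 under LPS (limma adjusted p = 1 and 0.0959). Fold changes are on the log2(FPKM + 1) scale, which understates the change of genes at such levels: the ratio of group means in FPKM is larger.

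Ccnb2 was at 0.766, 0.746 and 0.811 FPKM in PF and at 0.190, 0.164 and 0.438 in EtOH. Under LPS it was at 1.11, 1.08 and 1.46 FPKM in the pair-fed libraries and at 0.354, 0.0846 and 0.232 in the ethanol-fed ones. Again no ethanol-fed library reached a pair-fed one. The averaged log2 fold change was -0.68 ± 0.11 (limma adjusted p = 0.0306). It rests on few fragments, and the gene was tested at all only because its PF4hLPS values exceed 1 FPKM.

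Top2a was at 2.49, 1.68 and 1.89 FPKM in PF and at 0.735, 0.886 and 1.07 in EtOH. Under LPS the values were 2.56, 4.10 and 3.16 FPKM with the control diet and 1.82, 1.06 and 0.753 with ethanol. The diets separated in both states. Averaged over them, the log2 fold change was -0.82 ± 0.15 (limma adjusted p = 0.0446).

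These 3 calls lie close to the threshold of 0.05 and were lost under many of the alternatives. Cdk1 passed in 5 of 22, Top2a in 5 of 22 and Ccnb2 in 6 of the 18 in which it could be tested, while the sign stayed negative in all of them. With each library left out in turn, the limma adjusted p of Cdk1 ran from 0.0173 (without the first PF4hLPS library) to 0.146. That of Top2a ran from 0.0302 to 0.146, and both genes passed only without the first PF4hLPS or the first EtOH4hLPS library. That of Ccnb2 ran from 0.0423 to 0.112 over the 9 such fits that tested it, and it passed only without the first EtOH4hLPS library. Without the 3 libraries low in GC-rich genes, an alternative chosen after seeing the data, Top2a was called, Cdk1 was not, and Ccnb2 fell under the filter.

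**Figure D3:**
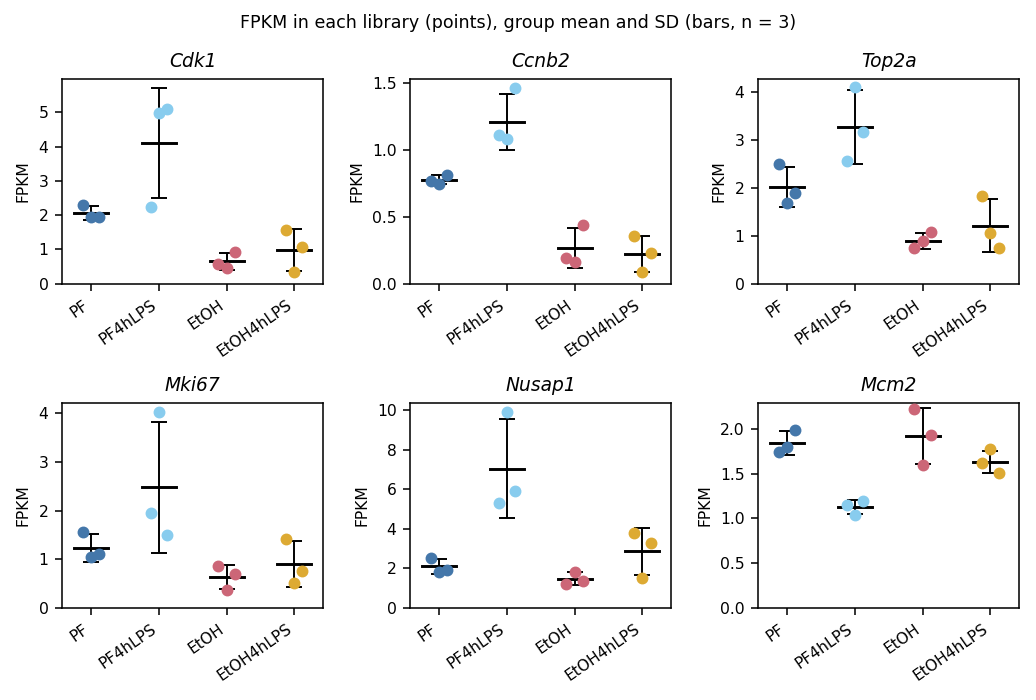
FPKM of Cdk1, Ccnb2, Top2a, Mki67, Nusap1 and Mcm2 in each library (points), with the group mean and SD (bars, n = 3) and y axes that start at 0. Cdk1, Ccnb2, Top2a, Mki67 and Nusap1 show EtOH points below all PF points and EtOH4hLPS points below all PF4hLPS points, and Mcm2 shows its lowest points in PF4hLPS.

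In each LPS state taken alone, no gene of the list passed the test. None of the 20 tested genes was called in the comparison of diets without LPS, against 0.0284% of all genes called in either direction, and none under LPS, against 0.0992%. At an unadjusted limma p under 0.05, 4 of the 20 were lower and 0 higher with ethanol without LPS, against 2.28% and 1.42% of all genes. Under LPS the counts were 9 lower and 2 higher, against 5.64% and 5.16%. Ccnb2, tested only through the PF4hLPS libraries, is among the lower genes in both, so these shares are a description. In the fit of all 35 genes, 6 were lower and 1 higher without LPS, against 2.06% and 1.28%. Under LPS 17 of the 35 were lower and 2 higher, against 4.69% and 4.42%. The 2 comparisons share no library. The fold change was below 0 in both for 16 of the 20 genes, and for 28.5% of all genes tested. In the fit of all 35 genes it was below 0 for 30 without LPS and for 29 under LPS, against 51.0% and 50.6%.

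Over all 35 genes, including those below the filter, 12 had no overlap between the diets and were lower in EtOH than in PF, against 5.63% of the 23390 genes that reached 0.1 FPKM in 3 or more libraries. Under LPS 16 of the 35 were lower without overlap, against 5.21%. Both held for 6 genes (Mcm7, Ccnb2, Cdk1, Nusap1, Mki67 and Top2a), or 17.1% of the list, against 0.765%. Higher without overlap was 1 gene without LPS (Plk1, against 5.04%) and 2 under LPS (Mcm2 and Tyms, against 4.63%), and in both states 0, against 0.693%. An exact permutation test of 3 against 3 libraries cannot give a p below 0.1.

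Lower means with ethanol were counted separately for the mitotic and the S-phase genes, and the difference between the 2 kinds was not tested. Of the 22 mitotic genes, 21 had a lower mean with ethanol without LPS, with a median ratio of group means of 0.704, and 21 under LPS, with a median ratio of 0.369. With each library left out in turn these counts were 18 to 21 and 21 to 22, and the median ratios 0.606 to 0.771 and 0.322 to 0.415. Of the 13 S-phase genes, 10 and 8 had a lower mean, with median ratios of 0.838 and 0.926. In the limma fit of all 35 genes, the fold change averaged over both states was negative for 22 of the 22 mitotic genes and 9 of the 13 S-phase genes, against 51.9% of the genes in that fit. Ccnb2, the call in that fit, had a log2 fold change of -1.72 ± 0.27 (limma adjusted p = 0.0389).

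**Figure D4:**
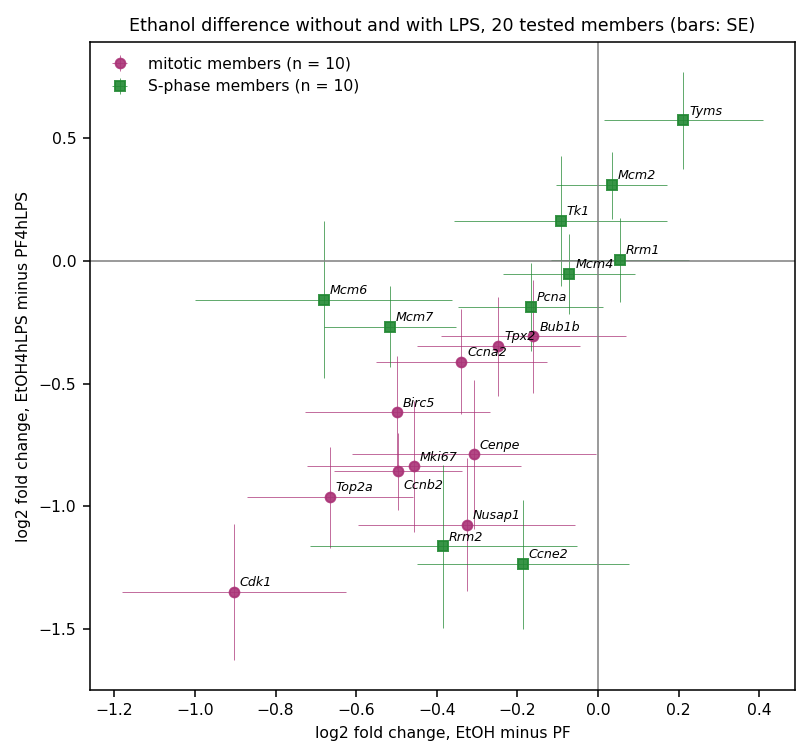
Log2 fold change with ethanol on the log2(FPKM + 1) scale for the 20 tested genes, without LPS on the x axis and under LPS on the y axis, with bars for the SE. All 10 mitotic genes (circles) lie below 0 on both axes, and the 10 S-phase genes (squares) spread around 0, with Rrm2 and Ccne2 among the lowest under LPS.

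Among the other cyclins, Ccne2, which drives entry into S phase, was at 2.11, 3.64 and 3.92 FPKM in PF4hLPS and at 1.35, 0.404 and 0.647 in EtOH4hLPS, a log2 fold change of -1.24 ± 0.26 under LPS that did not pass (limma adjusted p = 0.107). Without LPS the EtOH and PF libraries of Ccne2 overlapped. Ccna2, the cyclin of S phase and G2, was between 2.27 and 2.68 FPKM in PF and between 1.53 and 2.14 in EtOH, and under LPS its groups overlapped, at 1.95 to 4.10 FPKM in PF4hLPS and 1.31 to 2.23 in EtOH4hLPS. Ccnb1, the main mitotic cyclin, reached 1 FPKM in 2 libraries only, both PF4hLPS, and was between 0.307 and 0.467 in EtOH4hLPS. Ccne1 stayed between 0.0233 and 0.867 FPKM over the 12 libraries. Under LPS it was lower with ethanol without overlap, at 0.617 to 0.867 FPKM in PF4hLPS and 0.144 to 0.264 in EtOH4hLPS, and without LPS it overlapped. Foxm1, the transcription factor that acts on mitotic promoters with MuvB, was at 0.433, 0.201 and 0.248 FPKM in PF and at 0.422, 0.206 and 0.105 in EtOH. In PF4hLPS it was at 0.883, 0.389 and 0.568 FPKM and in EtOH4hLPS at 0.364, 0.183 and 0.338. Its log2 fold change in the fit of all 35 genes was -0.54 ± 0.30 with ethanol (limma adjusted p = 0.73) and 0.84 ± 0.43 with LPS in pair-fed mice (limma adjusted p = 0.249), and its groups overlapped between the diets without LPS.

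Of the Aurora and Polo kinases and the chromosomal passenger complex, which correct the attachment of chromosomes to the spindle, only Birc5 (survivin) was tested. It was at 1.39, 1.13 and 0.939 FPKM in PF and at 0.572, 0.377 and 0.620 in EtOH, with no overlap. In PF4hLPS it was at 1.08, 1.80 and 3.19 FPKM and in EtOH4hLPS at 1.16, 0.692 and 0.840, with 1 overlapping library. The averaged log2 fold change of -0.56 ± 0.16 did not pass (limma adjusted p = 0.24). Aurka ranged from 0.0312 to 0.794 FPKM, Aurkb from 0.135 to 0.682 and Cdca8 (borealin) from 0.154 to 1.01. Plk1, with an estimated 0 to 11 fragments per library, was at 0.0395 to 0.0494 FPKM in PF and at 0.144 to 0.245 in EtOH, the reverse of the order in the other mitotic genes. In PF4hLPS it was at 0.0265, 0.309 and 0.301 FPKM, and in EtOH4hLPS it was at most 0.0518.

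The spindle checkpoint holds cells in metaphase until chromosomes are attached, and the anaphase-promoting complex then releases them. Bub1b, the checkpoint kinase-like protein BubR1, was at 1.28, 0.853 and 1.00 FPKM in PF and at 1.22, 0.768 and 0.546 in EtOH. It was at 0.288, 0.740 and 1.29 FPKM in PF4hLPS and at 0.160, 0.495 and 0.563 in EtOH4hLPS, so the diets overlapped in both states (averaged log2 fold change -0.23 ± 0.16, limma adjusted p = 0.757). Bub1 ranged from 0.092 to 1.15 FPKM. Ube2c, the ubiquitin-conjugating enzyme of the complex, was lower under LPS with ethanol (0.148 to 0.281 FPKM) than with the control diet (0.555 to 0.824), without overlap. Cdc20, the activator of the complex, had another order of group means: it was highest in PF, at 0.826 to 1.16 FPKM, and lowest in PF4hLPS, at 0.144 to 0.400, which overlapped EtOH4hLPS at 0.199 to 0.552.

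No spindle or kinetochore gene was called with ethanol. Without LPS, Cenpe, Cenpf, Kif20a and Tpx2 overlapped between the diets, and Kif11 and Nusap1 were lower without overlap. Under LPS, Cenpf, a kinetochore protein, was at 0.773, 1.23 and 1.11 FPKM in PF4hLPS and at 0.257, 0.136 and 0.165 in EtOH4hLPS (log2 fold change -1.99 ± 0.35 in the fit of all 35 genes, limma adjusted p = 0.0984). Cenpe, the kinetochore motor, was between 1.36 and 4.33 FPKM in PF4hLPS and between 0.606 and 1.17 in EtOH4hLPS. Kif11, the motor that separates the spindle poles, was between 0.654 and 1.74 FPKM in PF4hLPS and between 0.257 and 0.731 in EtOH4hLPS, with 1 overlapping library. Kif20a, a motor of the midzone, was at 0.454 to 0.648 FPKM in PF4hLPS and at 0.169 to 0.229 in EtOH4hLPS. Tpx2, which targets Aurora A to the spindle, was at 0.790 to 1.20 FPKM and 0.345 to 1.14, with overlap. Mki67, a surface protein of mitotic chromosomes and the usual marker of proliferation, was at 1.56, 1.05 and 1.10 FPKM in PF and at 0.852, 0.361 and 0.687 in EtOH. Under LPS it was at 1.94, 4.03 and 1.49 FPKM with the control diet and at 1.42, 0.504 and 0.765 with ethanol, separate in both states (averaged log2 fold change -0.65 ± 0.19, limma adjusted p = 0.24).

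No helicase subunit was called with ethanol. Mcm2, a subunit of the helicase, was higher without overlap under LPS, at 1.04 to 1.19 FPKM in PF4hLPS and 1.51 to 1.77 in EtOH4hLPS (log2 fold change 0.31 ± 0.14, limma adjusted p = 0.45), and overlapped without LPS. Mcm6 was at 8.48, 10.5 and 10.2 FPKM in PF and at 7.10, 2.98 and 8.15 in EtOH, and at 7.25, 6.20 and 8.19 in PF4hLPS and 10.1, 5.19 and 4.70 in EtOH4hLPS (averaged log2 fold change -0.42 ± 0.23, limma adjusted p = 0.622). Mcm7 was lower without overlap in both states, at 7.6 to 8.89 FPKM in PF against 4.81 to 6.80 in EtOH, and at 5.13 to 6.37 in PF4hLPS against 3.98 to 4.94 in EtOH4hLPS (averaged log2 fold change -0.39 ± 0.12, limma adjusted p = 0.251). Mcm4 was between 1.90 and 3.13 FPKM in all 12 libraries. Mcm3 ranged from 0.220 to 1.35 FPKM and Mcm5 from 0.176 to 0.562. Under LPS Mcm5 was lower without overlap, at 0.324 to 0.477 FPKM in PF4hLPS and 0.176 to 0.305 in EtOH4hLPS, and without LPS it overlapped. Pcna was at 21.8, 16.2 and 20.2 FPKM in PF and at 16.2, 16.1 and 18.9 in EtOH, and at 22.1, 29.1 and 24.6 in PF4hLPS and 25.6, 18.1 and 22.7 in EtOH4hLPS, with overlap in both states (averaged log2 fold change -0.18 ± 0.13, limma adjusted p = 0.77). Tyms was the reverse of the mitotic genes, at 10.7 to 16.4 FPKM in PF4hLPS and 18.1 to 25 in EtOH4hLPS (log2 fold change 0.57 ± 0.20, limma adjusted p = 0.323). Rrm2, the regulated subunit of ribonucleotide reductase, was at 1.95 to 6.18 FPKM in PF4hLPS and 0.509 to 2.17 in EtOH4hLPS. Its partner Rrm1 and the salvage kinase Tk1 had averaged log2 fold changes of 0.03 ± 0.12 and 0.04 ± 0.19 (limma adjusted p = 0.973 and 0.979).

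Markers of blood and immune cells were set beside the ethanol comparison, and they do not measure whether those cells divide. Red cell precursor markers (5 of 6 tested) summed to 173 to 306 FPKM in PF and 120 to 248 in EtOH, and to 203 to 586 in PF4hLPS and 232 to 518 in EtOH4hLPS. The 8 lymphocyte markers were all under the filter and summed to 0.851 to 2.13 FPKM over the 12 libraries. Neutrophil and inflammatory monocyte markers summed to 7.68 to 11.5 FPKM in PF and 5.99 to 10.7 in EtOH, and to 185 to 421 in PF4hLPS and 170 to 259 in EtOH4hLPS. Of the 6 tested in that list, 5 had a negative fold change with ethanol without LPS and 6 under LPS (medians -0.18 and -0.42). Among them Ly6c2 was lower without overlap in both states, at 0.451 to 0.655 FPKM in PF and 0.154 to 0.398 in EtOH, and at 2.32 to 6.11 in PF4hLPS and 0.731 to 1.66 in EtOH4hLPS. No marker of the 10 cell type lists was at 0 in all libraries, and none was called with ethanol averaged over both states. The part of these cells in the ethanol difference was not tested.

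LPS at 4 hours raised 1 mitotic gene and left most of the list below the threshold. Nusap1, a microtubule-binding protein of the mitotic spindle, was at 2.53, 1.83 and 1.92 FPKM in PF and at 5.32, 9.93 and 5.90 in PF4hLPS. In ethanol-fed mice it was at 1.22, 1.82 and 1.37 FPKM without LPS and at 3.79, 1.49 and 3.27 with it. The pair-fed groups were separate, and the ethanol-fed groups overlapped through the second EtOH4hLPS library. Nusap1 rose in pair-fed mice (log2 fold change 1.34 ± 0.27, limma adjusted p = 0.00456) and averaged over both diets (0.97 ± 0.19, limma adjusted p = 0.00234), and its value in ethanol-fed mice was 0.59 ± 0.27 (limma adjusted p = 0.174). Both calls held in all 22 alternatives. The difference between the diets was itself tested, and no gene of the list passed, against 0.0284% of all genes, with Nusap1 at -0.75 ± 0.38 (limma adjusted p = 0.988). At an unadjusted limma p under 0.05, 1 of the 20 (Ccne2) differed in that interaction, against 4.37% of all genes. In the fit of all 35 genes there were 4 at that threshold (Plk1, Cenpf, Ccne2 and Ube2c). All 4 were on the lower side, against 2.07% of the genes in that fit, and 0 on the higher side, against 2.22%.

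With the Nusap1 call, 1 of the 20 tested genes was higher with LPS in pair-fed mice, against 11.3% of all genes, and 0 lower, against 6.89%. At an unadjusted limma p under 0.05 the counts were 3 higher and 2 lower, against 17.4% and 13.8% of all genes. In the fit of all 35 genes they were 3 higher and 3 lower, against 12.8% and 12.2%. In ethanol-fed mice 0 were called in either direction, against 10.7% higher and 6.39% lower, and at an unadjusted limma p under 0.05 there were 1 higher (Nusap1) and 1 lower (Ccne2), against 15.7% and 12.5%. Averaged over both diets, 1 was called higher, against 16.4%, and 1 lower, against 13.2%. Each share of the list called was below that of all genes. The response to LPS itself was present in every treated group: Cxcl10, Lcn2 and Saa1 had log2 fold changes of 6.85 to 9.07 in pair-fed and 6.89 to 9.51 in ethanol-fed mice.

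The gene called lower with LPS averaged over both diets was Mcm2, at 1.74, 1.80 and 1.99 FPKM in PF and 1.15, 1.04 and 1.19 in PF4hLPS, and at 2.22, 1.60 and 1.93 in EtOH and 1.62, 1.77 and 1.51 in EtOH4hLPS. The pair-fed groups were separate and the ethanol-fed groups overlapped. The averaged log2 fold change was -0.28 ± 0.10 (limma adjusted p = 0.0469), and the call held in 5 of 22 alternatives. With each library left out, the limma adjusted p ran from 0.0403 to 0.124, under the threshold only without the second EtOH library. Over the other 10 alternatives it ran from 0.00729 to 0.802. The log2 fold change ran from -0.529 to -0.054 over all 22. Mcm2 has the highest GC content of the 35 genes, 58.0%, and was not called with the GC trend removed. Mcm7 (-0.33 ± 0.12, limma adjusted p = 0.0502) and Pcna (0.36 ± 0.13, limma adjusted p = 0.0537) were just outside the threshold in the same comparison. In the fit of all 35 genes, Cdc20 fell with LPS in pair-fed mice (log2 fold change -1.49 ± 0.41, limma adjusted p = 0.0331) and averaged over both diets (-0.93 ± 0.29, limma adjusted p = 0.0371), against 4.87% and 10.4% of the genes in that fit called lower, with an estimated median of 15 fragments per library.

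Most mitotic genes had a higher group mean in PF4hLPS than in PF, but 1 of the 10 tested passed and 5 of the 22 were higher without overlap. Of the 22, 3 (Cdc20, Bub1b and Aurka) had a ratio of group means below 1 (median ratio 1.69), and with each library left out 2 to 4 (median ratio 1.43 to 1.88). The median log2 fold change of the 10 tested was 0.43, and 0.13 with equal total FPKM. In ethanol-fed mice 13 of the 22 had a ratio below 1 (median ratio 0.843). Of all 35 genes, 7 were higher without overlap in PF4hLPS than in PF, against 14.4% of the 23390 genes, and 4 lower, against 14.1%. In ethanol-fed mice 1 was higher, against 14.3%, and 5 lower, against 13.3%. PF4hLPS libraries 2 and 3, with mitotic sums of 46.1 and 36.7 FPKM, carried the higher values, and the first, at 24.3, lay within the PF range of 18.3 to 25.3. Without the first PF4hLPS library, Cdk1 and Birc5 were also called higher in pair-fed mice. The summed neutrophil and inflammatory monocyte markers moved with LPS, from 7.68 to 11.5 FPKM in PF to 185 to 421 in PF4hLPS and from 5.99 to 10.7 in EtOH to 170 to 259 in EtOH4hLPS. S100a8 and S100a9 made up most of the sums under LPS. Of the 6 tested, 5 were called higher with LPS averaged over both diets. Ccr2 was called lower (log2 fold change -1.21 ± 0.14, limma adjusted p = 4.77e-05). Summed endothelial markers went from 107 to 139 FPKM in PF to 35.3 to 53.5 in PF4hLPS and from 128 to 140 in EtOH to 44.0 to 61.3 in EtOH4hLPS, with 5 of 6 called lower with LPS averaged over both diets. The other, Cdh5, was called higher (log2 fold change 1.18 ± 0.16, limma adjusted p = 0.000192). Of 5 collecting duct markers 3 were called lower in the same comparison. The part of these cells in the values of the mitotic genes was not tested.

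Other cell cycle genes were counted from 7 lists of 166 genes. The list with the most calls held cyclin-dependent kinase inhibitors, p53 targets and antiproliferative genes. With LPS in pair-fed mice 10 of the 21 tested genes rose and 1 (Sesn1) fell, and in ethanol-fed mice 12 rose and 1 fell. Its median log2 fold change was 0.71 and 1.31, beside -0.01 and 0.02 over all genes tested. Plk3, a stress-responsive Polo-like kinase, went from 0.779 ± 0.458 FPKM (SD, n = 3) in PF to 25.1 ± 6.15 in PF4hLPS, and from 0.630 ± 0.161 in EtOH to 32.3 ± 19.7 in EtOH4hLPS. Btg2, an antiproliferative gene, went from 3.71 ± 1.04 to 30.6 ± 9.70 FPKM and from 4.31 ± 0.172 to 95.6 ± 31.6. Cdkn1a, which encodes the inhibitor p21, went from 0.569 ± 0.0928 to 7.24 ± 2.07 FPKM and from 0.853 ± 0.421 to 10.3 ± 2.87. Gadd45a, a DNA damage response gene, went from 17.7 ± 2.95 to 69.1 ± 10.3 FPKM and from 15.5 ± 1.03 to 104 ± 13.6. Their log2 fold changes were 3.88, 2.73, 2.37 and 1.91 in pair-fed and 4.19, 4.13, 2.60 and 2.66 in ethanol-fed mice, and all 4 passed the limma test in both diets.

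Among G1 cyclins, their kinases and Cdc25 phosphatases, Ccnd2 rose in pair-fed mice (log2 fold change 1.18 ± 0.17, limma adjusted p = 0.000361), the only call of 14 tested genes. In ethanol-fed mice Myc, Ccnd2 and Cdk6 rose, and Cks2 and Skp2 fell. Without passing the test, Myc was also higher in pair-fed mice, at 0.589 to 1.51 FPKM in PF and 4.8 to 5.32 in PF4hLPS. Cks2 (41.3 to 61.2 and 20.9 to 32.8 FPKM) and Skp2 (0.712 to 1.17 and 0.316 to 0.62) were also lower there without overlap, and Cdk6 overlapped. Of 15 tested E2F, RB and DREAM regulators, Rbl1, which encodes the pocket protein p107 of DREAM, rose in both diets (2.08 ± 0.16 and 1.48 ± 0.16), while E2f6 fell in both. Lin9, a subunit of the MuvB core, rose in pair-fed mice, and E2f3 in ethanol-fed mice. Of 27 tested licensing, polymerase and fork genes, Rpa1 fell in pair-fed mice, and Gins1 and Pola2 rose in ethanol-fed mice. Of the 20 other mitotic genes tested, Ect2 and Hmmr rose in pair-fed mice (0.65 ± 0.20 and 0.58 ± 0.17, limma adjusted p = 0.0388 and 0.0342), and none was called in ethanol-fed mice. None of the 13 core subunits of the anaphase-promoting complex and none of the 11 DNA damage checkpoint genes was called with LPS in either diet. No gene of these lists was called in the diet by LPS interaction, so a call in a single diet does not show a difference between the diets.

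**Figure D5:**
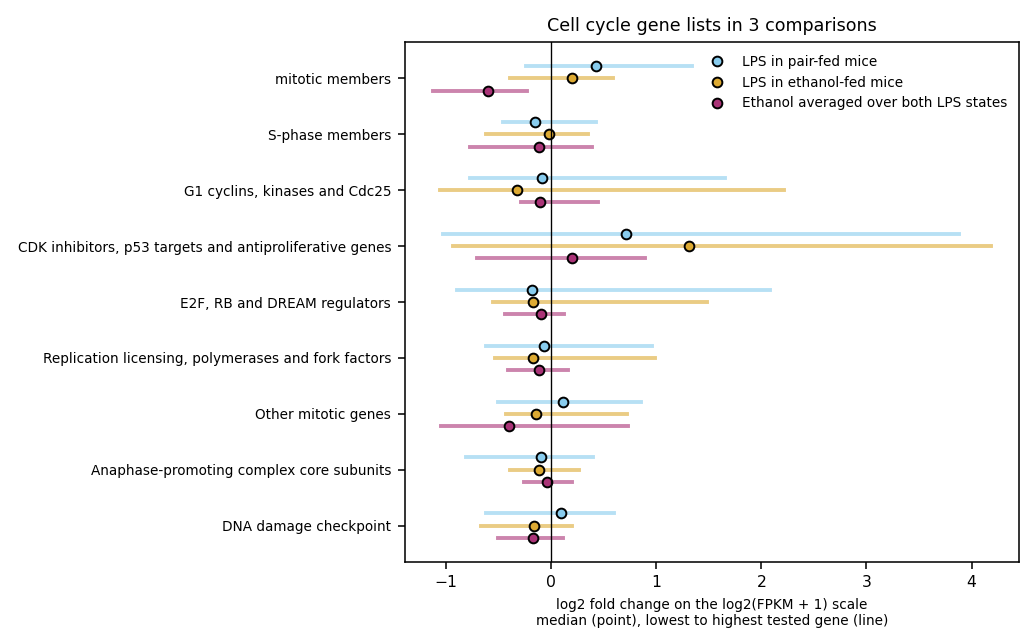
Log2 fold change on the log2(FPKM + 1) scale for the mitotic and S-phase genes and 7 other cell cycle lists in 3 comparisons, with a point at the median of the tested genes and a line from the lowest to the highest. The list of inhibitors, p53 targets and antiproliferative genes reaches 3.88 and 4.19 with LPS, and the mitotic genes have their median at -0.60 with ethanol.

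With ethanol, no gene of the 7 other lists was called in any of the 3 ethanol comparisons. The 20 other mitotic genes tested were on the same side as the mitotic genes above: 18 had a negative fold change without LPS and 16 under LPS, with median log2 fold changes of -0.32 and -0.61, beside -0.01 and -0.003 over all genes tested. The lowest averaged over both states were Prc1 (-1.05 ± 0.21, limma adjusted p = 0.0691) and Pbk (-0.99 ± 0.21, limma adjusted p = 0.0975), and the highest was Spc25, a kinetochore subunit (0.73 ± 0.21, limma adjusted p = 0.232), all named after their values were seen. Spc25 was at 33.7 to 36.5 FPKM in PF and at 47.0 to 58.0 in EtOH, with no overlap. The inhibitor list, which had the most calls with LPS, had a median of 0.20 with ethanol averaged over both states.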

How the data were processed

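The data are 12 RNA-seq libraries of kidney cortex. The authors deposited 1 table of normalized FPKM values for 47719 Ensembl genes, and 47305 matched GENCODE M21 by identifier. The submitters' processing notes name Cufflinks 2.2.1, Cuffnorm, Cuffdiff 2.1.1, TopHat2 2.0.4, FastQC 0.10.1 and the build mm10. The kit was stranded, per the labels' protocols. Strand setting, annotation and fragment totals were not given in the sources used here.

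Groups came from the labels. Genes that reached 1 FPKM in 3 or more libraries were tested (14109) as log2(FPKM + 1) with limma 3.58.1 in R 4.3.3: 1 mean per group, intensity trend, robust prior, two-sided, Benjamini-Hochberg adjustment over all genes tested, threshold 0.05. The script was tested on simulated data. Errors beside fold changes are standard errors, and those beside levels are SD. Fragments were estimated from the steps of low values (1 fragment is 0.04 FPKM kb in the first PF library, effective length the longest transcript less 190 bases) and describe precision only. No counts were recovered, and no count model was run.

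The genes and lists were chosen with earlier results of these data known. Named genes were all 35, with values per library for those called in a comparison and for the highest of each role, and up to 4 called genes of each other list. The averaged LPS comparison and the interaction were run beside the simple comparisons. The alternatives were pseudocount 0.1, no filter, a filter at 0.1 FPKM with pseudocount 0.1, equal total FPKM, quantile and median-ratio scaling, removal of the GC trend, a replicate block, limma without trend or robust prior, each library left out, and, added later, the 3 libraries low in GC-rich genes left out. Promoters came from RefSeq, without chromosome 18.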

Additional observations from a re-analysis of the deposited data

How the results depend on the processing

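No value changed sign in a call. Counts of genes of the list called with ethanol averaged over both LPS states (3 lower) were 0 with pseudocount 0.1, with quantile scaling and with the replicate block, and 1 with no filter, with the filter at 0.1 FPKM, with equal total FPKM, without trend or robust prior, and without the 3 libraries low in GC-rich genes. With ethanol under LPS (0 lower), removing the GC trend gave 2 (Ccnb2 and Top2a). With LPS in pair-fed mice (0 lower), the counts were 3 with equal total FPKM and 1 with no filter, with the filter at 0.1 FPKM, with quantile scaling, with median-ratio factors, and without trend or robust prior. With LPS in ethanol-fed mice (0 lower), they were 1 with equal total FPKM and with the GC trend removed, and 2 without the 3 libraries. With LPS averaged over both diets (1 lower), they were 4 with equal total FPKM, 2 with median-ratio factors, with the GC trend removed and without trend or robust prior, and 0 with the replicate block. The cause was not tested.

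With each library left out in turn, the counts were 0 to 3 lower with ethanol averaged over both states and 0 to 1 lower with ethanol under LPS. They were 1 to 3 higher with LPS in pair-fed mice, 0 to 1 higher in ethanol-fed mice, and 1 to 4 higher and 0 to 1 lower averaged over both diets. The deviations of same-numbered libraries from their group means were correlated at r from -0.2064 to 0.2785. Differently numbered libraries were not compared in this way, so whether a number marks a pairing or a batch was not tested.

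With equal total FPKM the median log2 fold change of all genes was -0.40 with LPS in pair-fed mice, -0.26 in ethanol-fed mice and -0.35 averaged, and 0.19 with ethanol under LPS and 0.13 averaged, in place of medians between -0.01 and 0.02. That scaling turned the median of the tested S-phase genes with ethanol from -0.11 to 0.10 under LPS and from -0.12 to 0.03 averaged, and the 10 tested mitotic genes stayed negative under each scaling. It changed the share of calls that were higher from 62.0% to 25.1% with LPS in pair-fed mice, from 62.5% to 35.5% in ethanol-fed mice and from 55.5% to 21.9% averaged. Quantile scaling gave 44.0% averaged. Under LPS, ethanol calls were 5 higher and 9 lower, and 25 and 22 with the GC trend removed. Low fragment numbers limit the precision of genes such as Plk1, Aurka and Ccnb2.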
